A study of Mus musculus with 6 samples.

Results

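The noncoding RNAs of the Hox clusters were followed in tailbud of mouse embryos with 8 somites. Members were the 9 listed RNAs (Hotair, Hottip, Hotairm1, Hoxaas2, Hoxaas3, Hoxa11os, Hoxb3os, Hoxb5os and Haglr), each matched to a row of the expression table by its symbol. All 9 were found among the 35591 rows, and 7 of them passed the filter on low values described with the processing. Poly(A) RNA was sequenced from tailbud that held the presomitic mesoderm, dissected from 3 Smchd1+/+ embryos (WT) and 3 Smchd1 MommeD43/MommeD43 embryos, all on the FVB/NJ background. MommeD43 is a missense allele of the chromatin protein SMCHD1 that came from a chemical mutagenesis screen for changed transgene silencing. The comparison asks whether this allele alters gene activity in the tissue where Hox genes are first switched on along the body axis. Each library came from 1 embryo. Both genotypes had a male as replicate 1 and females as replicates 2 and 3, and the 6 embryos had 5 mothers, since the males were from the same mother.

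Hox genes lie in 4 clusters, and their order along the chromosome matches the order in which they are switched on in time and along the body axis. Long noncoding RNAs are transcribed from the same clusters, mostly from the strand opposite to the Hox genes. Hotair and Hottip are known from human cells, Hotair as an RNA of the HOXC cluster linked to Polycomb proteins and Hottip as an RNA of the posterior end of HOXA linked to WDR5 and the MLL methyltransferases. Hotairm1 is a retinoic acid responsive RNA of the opposite, anterior end of the Hoxa cluster.

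The table held log2 RPKM, which is the log2 of the reads of a gene scaled to its exon length in kilobases and to the size of the library, so levels below are compared between genes per length. Recovered library totals ranged from 10957916 to 47298348 reads, a 4.32-fold range in depth. In every library all 10 tailbud and presomitic mesoderm markers had reads, with summed levels of 568 to 779 RPKM across WT and 575 to 684 RPKM across MommeD43 libraries, whereas 5 neural markers summed to between 22.2 and 24.7 RPKM. The source field of the labels names NSCs, the study's term for neural stem cells, and the tissue field was followed here. Smchd1 itself, whose allele is a missense change, had a log2 fold change of -0.09 ± 0.09 (SE, MommeD43 against WT), and its level does not check the genotype labels.

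Sequences are shown for the RNAs with the highest levels, with coordinates in GRCm38 and exons from GENCODE M21. They are the first exon of the Hoxaas3 transcript that starts outermost (chr6:52175217-52175295, plus strand) and the first exon of the longer Hoxb5os transcript (chr11:96306737-96306910, minus strand). Both are in lower case throughout, since no stretch is singled out.
Hoxaas3, exon 1: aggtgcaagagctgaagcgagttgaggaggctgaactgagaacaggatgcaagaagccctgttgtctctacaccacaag
Hoxb5os, longer transcript, exon 1: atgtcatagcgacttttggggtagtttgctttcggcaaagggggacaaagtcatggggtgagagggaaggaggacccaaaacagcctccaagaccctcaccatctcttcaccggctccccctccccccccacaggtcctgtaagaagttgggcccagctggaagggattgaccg

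Haglr and Hoxd1 start from the same stretch of DNA and run away from each other, so their promoter is shown once, 5′ to 3′ on the plus strand, in the direction of Hoxd1. The window of 300 bases (chr2:74762730-74763029, RefSeq promoters, GRCm38.p6) covers 250 bases before and 50 bases from the start of Hoxd1. Capitals mark the 83 bases between the first base of Haglr (74762896, minus strand) and the first base of Hoxd1 (74762980, plus strand).
Hoxd1 and Haglr promoter: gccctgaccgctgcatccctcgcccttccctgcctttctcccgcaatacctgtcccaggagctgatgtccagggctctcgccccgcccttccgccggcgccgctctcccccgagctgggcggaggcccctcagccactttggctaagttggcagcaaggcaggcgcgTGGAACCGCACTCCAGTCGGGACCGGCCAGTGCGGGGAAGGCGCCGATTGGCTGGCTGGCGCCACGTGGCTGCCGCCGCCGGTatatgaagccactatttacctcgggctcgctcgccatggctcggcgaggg
It has 69.7% G or C and 29 CpG dinucleotides, where the median of 32851 promoters was 7 and 87.1% had fewer. The letters CCAAT were found once on either strand, as an inverted copy between the starts, and 37.4% of all promoters held them. The TATA box letters TATAAA, searched on both strands, had no match in this window and were held by 13.6% of all promoters. The nuclear receptor half-site AGGTCA had no match either, against 16.3% of all promoters. The same held for TTTATNG, the core bound by CDX factors, which 10.9% of all promoters held. Of the 9 noncoding RNAs, 3 (Hottip, Hoxa11os and Hoxb3os) had a promoter entry of their own.

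The 9 RNAs ranged in level from RNAs above nearly all Hox genes to RNAs with only a few reads. Hoxaas3 and Hoxb5os were by far the most abundant, with means over all 6 libraries of 107 and 91.5 RPKM. Hotairm1 followed at 11.7 RPKM, then Hoxb3os at 4.94, Haglr at 4.53, Hoxaas2 at 2.51 and Hoxa11os at 0.652 RPKM. Hotair and Hottip were at or near 0. Neighbours in this order were compared within libraries on the log2 RPKM scale with an exact sign-flip permutation test (two-sided, n = 6, 6 comparisons). The order was taken from the means of these same libraries, so the p-values are not an independent check of it. Hoxb5os was 7.70-fold above Hotairm1, Hotairm1 2.38-fold above Hoxb3os, Haglr 1.80-fold above Hoxaas2 and Hoxaas2 4.12-fold above Hoxa11os. Each of these steps held in 6 of 6 libraries, with an exact p = 0.03125, the smallest this design allows, and p = 0.0469 after Benjamini-Hochberg adjustment. Hoxaas3 and Hoxb5os differed by less than their spread, with Hoxaas3 higher in 5 of 6 libraries (exact permutation p = 0.125, adjusted p = 0.15). Likewise Hoxb3os exceeded Haglr in only 2 of 6 libraries (exact permutation p = 0.5, adjusted p = 0.5).

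**Figure D1:**
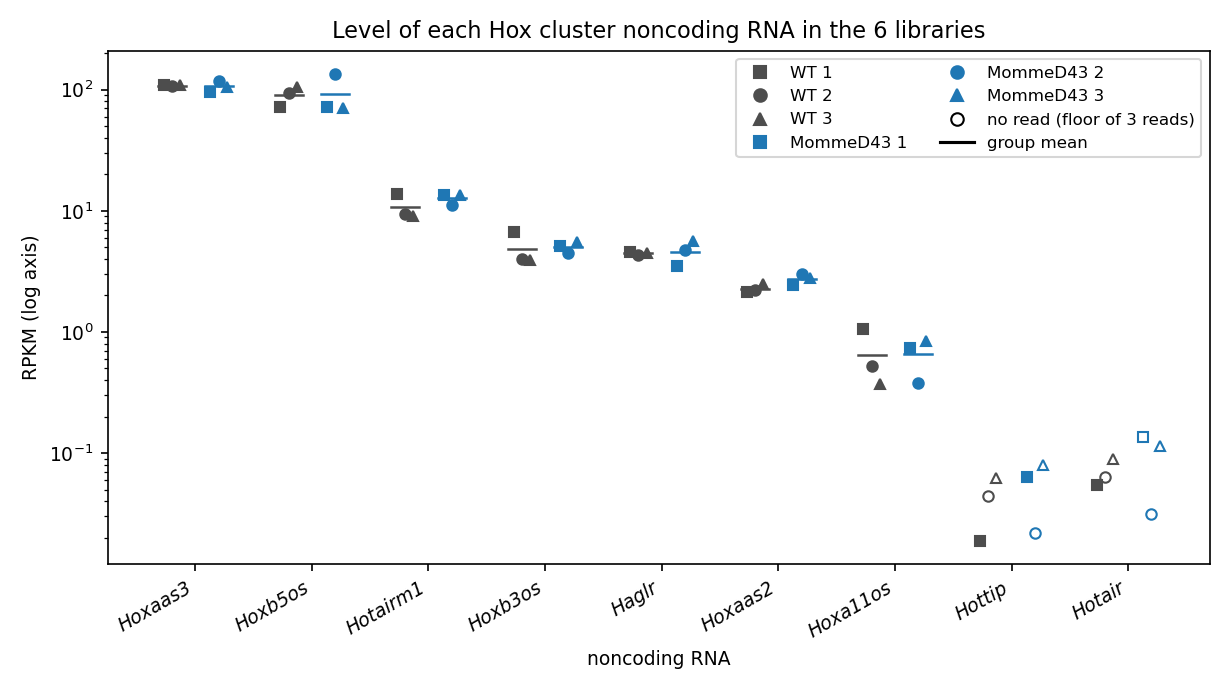
RPKM (log axis) of the 9 noncoding RNAs in each library, with WT in grey and MommeD43 in blue, symbols for replicates 1 to 3, and bars for group means. Hoxaas3 and Hoxb5os lie at about 100 RPKM in both groups, and open symbols mark libraries without a read, drawn at the level of 3 reads.

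Hoxaas3 (chr6:52175217-52215076, plus strand) runs against Hoxa4, Hoxa5 and Hoxa6, which it spans, and overlaps 38120 bases of Hoxa3, and its last exon lies opposite to an exon of Hoxa7. It was at 108, 107 and 109 RPKM in WT replicates 1, 2 and 3 and at 95.6, 118 and 105 RPKM in MommeD43 replicates 1, 2 and 3. The WT libraries were almost equal, with MommeD43 replicate 2 above all of them and replicates 1 and 3 just below. The lowest value was in the shallowest library (10957916 reads) and the highest in the deepest (47298348 reads), and the part of depth in this was not tested. In every library Hoxaas3 exceeded all 11 Hoxa genes. Of all 39 Hox genes, only Hoxb9 was above it, and 97.3% to 97.8% of the genes tested were below it. Genes on the opposite strand cover 30.7% of its exons.

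Hoxb5os (chr11:96291024-96306910, minus strand) spans Hoxb5 and Hoxb6. It was at 72.0, 94.0 and 105 RPKM in WT and at 72.6, 135 and 70.3 RPKM in MommeD43. The highest and the lowest values were both in MommeD43, so the WT range fell inside that of MommeD43. In all 6 libraries it exceeded 38 of 39 Hox genes, with Hoxb9 again the exception. Hoxb5, which shares 100 exon bases with it on the other strand, had a mean of 3.52 RPKM. Its exons total 696 bases, the shortest of the 9, and each library held between 554 and 4431 of its reads.

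The other noncoding RNAs of the anterior Hoxa cluster were lower. Hotairm1 (chr6:52156902-52162119, plus strand), which lies next to Hoxa2 on the opposite strand, was at 13.9, 9.33 and 8.98 RPKM in WT and at 13.5, 11.1 and 13.5 RPKM in MommeD43. WT replicate 1 and MommeD43 replicates 1 and 3 were high, and WT replicates 2 and 3 were low. Hoxaas2 (chr6:52165674-52169564, plus strand), opposite to the 3′ end of Hoxa3, was at 2.12, 2.22 and 2.47 RPKM in WT and at 2.44, 3.00 and 2.80 RPKM in MommeD43. Its groups overlapped by a single library, since MommeD43 replicate 1 lay just under WT replicate 3. At 90 to 477 reads a library, the exact 95% counting interval of the latter (2.08 to 2.92 RPKM) lies inside that of the former (1.97 to 3.00 RPKM).

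Towards the posterior end of the same cluster, levels were lowest. Hoxa11os (chr6:52244393-52249799, plus strand), antisense to Hoxa11, was at 1.05, 0.524 and 0.372 RPKM in WT and at 0.742, 0.378 and 0.845 RPKM in MommeD43. As for Hotairm1, the high libraries were WT replicate 1 and MommeD43 replicates 1 and 3. It rested on 19 to 118 reads a library. Hottip (chr6:52262775-52267603, plus strand), beyond Hoxa13, had 2 reads in WT replicate 1 and 2 reads in MommeD43 replicate 1, and no read in the other 4 libraries. In the deepest library, MommeD43 replicate 2, 0 reads had an exact 95% upper limit of 0.0271 RPKM, and 3 reads would make 0.0220 RPKM. Hoxa13, its neighbour, had 374 reads in all and a mean of 1.09 RPKM. Hotair (chr15:102944062-102947730, minus strand) had 4 reads in WT replicate 1 (0.0545 RPKM, exact 95% interval 0.0148 to 0.139) and none elsewhere. Its nearest Hox gene, Hoxc12, had 0 reads in all libraries. At this depth no difference in Hotair or Hottip between genotypes was detectable.

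In the remaining clusters, Hoxb3os (chr11:96343072-96354691, minus strand) was at 6.64, 3.99 and 3.92 RPKM in WT and at 5.11, 4.45 and 5.51 RPKM in MommeD43. Genes on the opposite strand, Hoxb3 and Hoxb2, cover 76.2% of its exons. The order of its libraries was close to that of Hotairm1, with WT replicate 1 the highest. Haglr (chr2:74748422-74762896, minus strand) was at 4.54, 4.30 and 4.52 RPKM in WT and at 3.50, 4.75 and 5.59 RPKM in MommeD43. Here the WT libraries were nearly equal, MommeD43 replicate 1 lay below all of them, and replicates 2 and 3 lay above. Despite the shared promoter, Hoxd1 was 28.99 RPKM on average, above Haglr in 6 of 6 libraries.

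**Figure D2:**
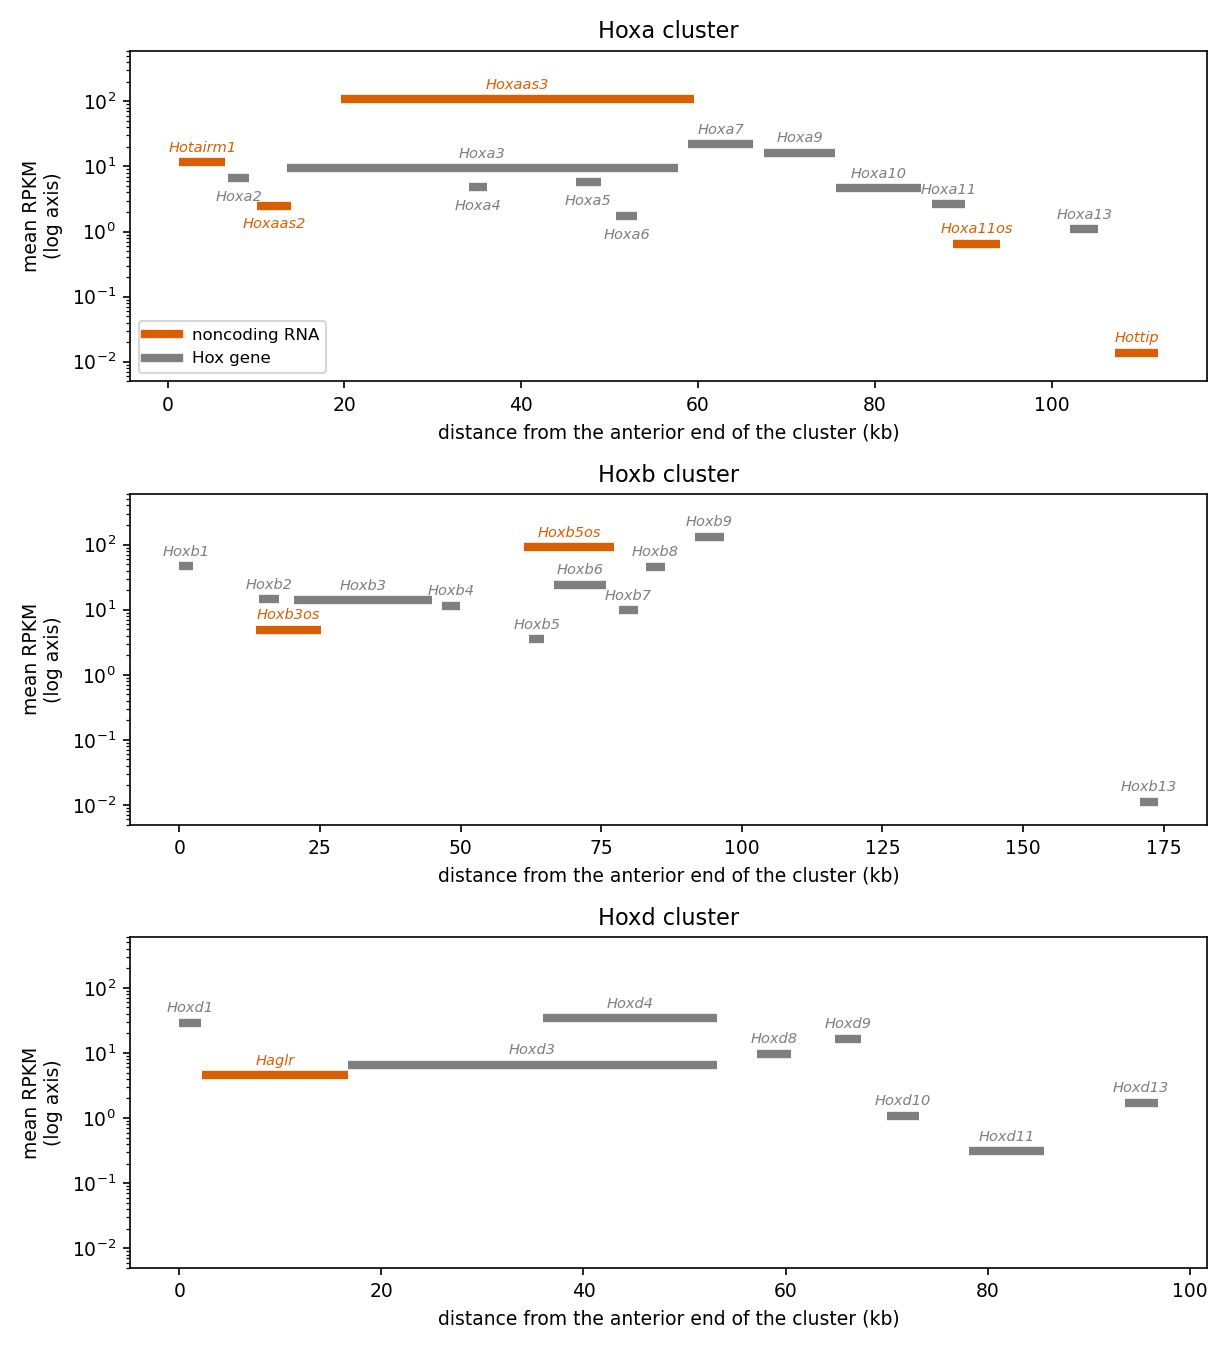
Mean RPKM over 6 libraries (log axis) of noncoding RNAs (orange) and Hox genes (grey) against distance from the anterior end of the Hoxa, Hoxb and Hoxd clusters in kb, each bar covering the span of the gene. Hoxaas3 lies above every Hoxa gene drawn, and in the Hoxb cluster only Hoxb9 lies above Hoxb5os. Genes with no read are left out, and not every other Hox gene is drawn.

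Because these RNAs overlap Hox genes on the other strand, it matters whether counting kept strands apart. The library kit was stranded, and the setting used for counting was not given in the sources used here. Among 63 genes with at least 90% of their exons covered by an opposite-strand gene of at least 10 RPKM, 62 were under 5% of their partner and 22 had no read, with a median of 0.263%. Strands were thus told apart in nearly all of these pairs.

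No call was made for the 7 noncoding RNAs that could be tested between genotypes. With limma across 13617 autosomal genes, 0 of 7 passed a Benjamini-Hochberg adjusted p of 0.05, and 0 genes did in the whole table (0%). At an unadjusted p under 0.05 the counts were 0 of 7 RNAs and 327 of all genes tested (2.40%). With voom on recovered reads, the counts for the 7 RNAs were 0 adjusted and 1 unadjusted (Hoxaas2), and over all genes tested they were 0 adjusted (0%) and 425 unadjusted (3.12%). The groups overlapped for all 7, where they did not overlap for 964 genes (7.08%). Of the 7, 5 had a positive and 2 a negative log2 fold change, with a median of 0.07, against 0.003 over all genes tested.

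The largest log2 fold changes belonged to the anterior Hoxa RNAs. Hoxaas2 had 0.27 ± 0.13 (SE, limma, unadjusted p = 0.0711, adjusted p = 0.999), and its 95% confidence interval ran from -0.03 to 0.58. Hotairm1 had 0.27 ± 0.17 (unadjusted p = 0.142, adjusted p = 0.999), with an interval from -0.11 to 0.65. The value for Hotairm1 moved with the libraries used, to 0.47 without WT replicate 1 (limma, adjusted p = 0.695), the highest WT library, to 0.16 without WT replicate 3 and to 0.12 with voom. Hoxaas3 was the most closely measured, at -0.03 ± 0.08, with an interval from -0.20 to 0.14. Hoxb5os had -0.02 ± 0.25 (interval -0.58 to 0.55), Hoxb3os 0.09 ± 0.20 (interval -0.37 to 0.55) and Haglr 0.03 ± 0.16 (interval -0.35 to 0.40). Hoxa11os, at 0.07 ± 0.44, had the widest interval, from -0.95 to 1.09. All 7 intervals include 0. Leaving out 1 library turned the sign of Hoxaas3, Hoxa11os, Hoxb3os, Hoxb5os and Haglr, and no such value passed an adjusted p of 0.05.

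**Figure D3:**
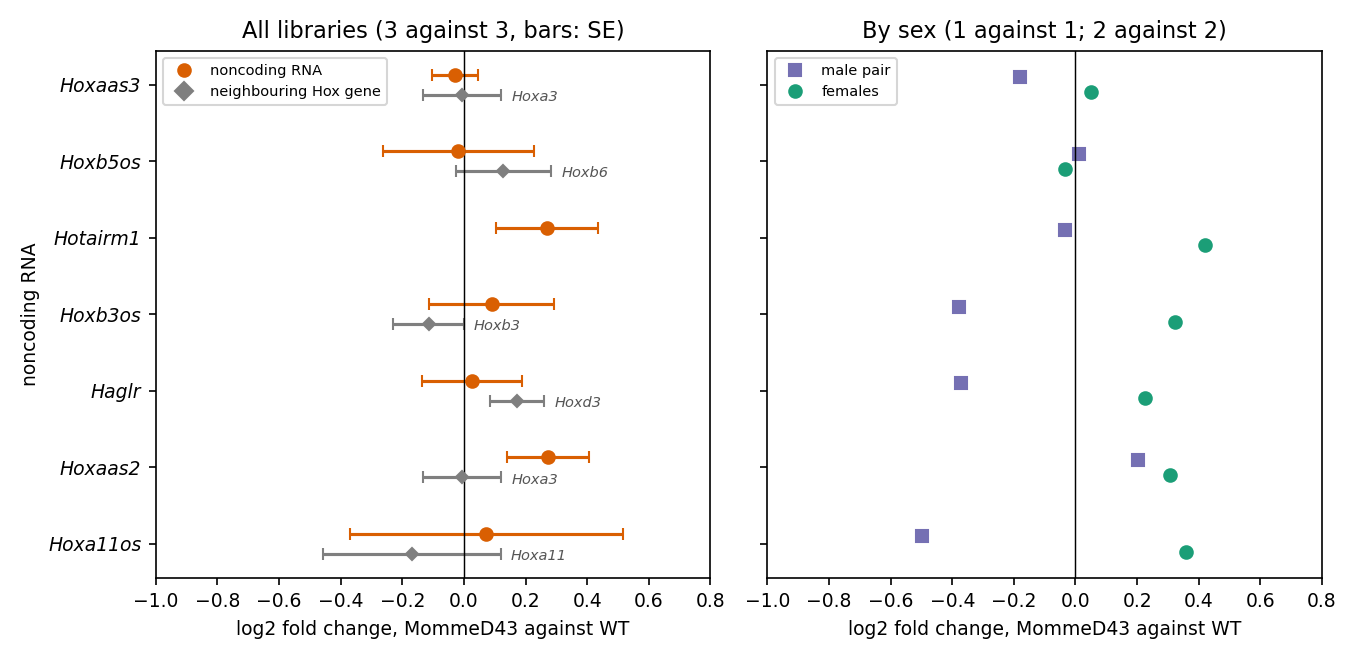
Left, log2 fold change (MommeD43 against WT, 3 against 3, bars SE) of the 7 tested noncoding RNAs in orange and, for 6 of them, of the neighbouring Hox gene in grey. Right, the same change for the male pair (1 against 1) and for the females (2 against 2). Hotairm1 and Hoxaas2 sit at 0.27 on the left, and on the right 6 of 7 RNAs have opposite signs in the male pair and the females. Some of these values are near 0, and the share of all genes tested with opposite signs was not counted.

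The noncoding RNAs were then compared with the Hox gene that overlaps them most or lies nearest. For 6 pairs the log2 ratio of RNA to Hox gene was compared between genotypes with an exact permutation test (two-sided, 3 against 3, smallest possible p = 0.1). The ratios overlapped between groups in all 6 pairs, and the smallest p was 0.2. Hotairm1 is set beside Hoxa2 further on. Hoxaas2 was at 0.185, 0.262 and 0.296 times Hoxa3 in WT and at 0.277, 0.304 and 0.305 times Hoxa3 in MommeD43 (exact permutation p = 0.2). WT replicate 1 had the lowest ratio and also the highest Hoxa3, at 11.4 RPKM. Without this library, the difference in log2 ratio went from 0.28 to 0.08.

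Hoxaas3 exceeded Hoxa3 9.47 to 13.0 times, and its log2 ratio differed by -0.02 between genotypes. Hoxa11os stood at 0.164 to 0.305 times Hoxa11 while its own level spanned 2.82-fold between libraries. Hoxb3os stood at 0.238 to 0.492 times Hoxb3, and Hoxb5os at 2.39 to 5.96 times Hoxb6, the widest ratio range of the 6. Haglr stood at 0.687 to 0.743 times Hoxd3 in WT and at 0.479, 0.637 and 0.876 times Hoxd3 in MommeD43 (exact permutation p = 0.7). The WT ratios were tight, and the MommeD43 ratios scattered around them.

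Other Hox genes that an RNA spans or that lie within 1 kb were set beside it after the values were seen. Hotairm1 was at 1.46 to 2.02 times the level of Hoxa2, with a mean log2 ratio of 0.79 ± 0.24 in WT and 0.85 ± 0.12 in MommeD43 (SD, n = 3 each, exact permutation p = 0.8). The ratios of the RNAs to Hoxa2, Hoxa4, Hoxa5, Hoxa7, Hoxb2, Hoxb5, Hoxb7 and Hoxd1 overlapped between groups. The single pair whose groups did not overlap was Hoxaas3 and Hoxa6. With 3 against 3 libraries, chance alone sets groups apart at a rate of 0.1 per pair, and several pairs were looked at. Hoxa6 was at 2.03, 2.42 and 2.34 RPKM in WT and at 0.627, 2.20 and 0.699 RPKM in MommeD43, on 6 to 91 reads a library. The Hoxaas3 to Hoxa6 ratio was 53.4, 44.1 and 46.6 in WT and 153, 53.6 and 151 in MommeD43 (exact permutation p = 0.1, the smallest possible). In MommeD43 replicate 2 the ratio lay just above the highest WT ratio. Of the 2 genes, Hoxaas3 had a log2 fold change of -0.03 and Hoxa6 of -1.19 ± 0.43 (limma, unadjusted p = 0.024, adjusted p = 0.999).

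Some of these RNAs followed the same division of libraries, which was not that of genotype. Hotairm1, Hoxb3os and Hoxa11os were each above their own mean in WT replicate 1, MommeD43 replicate 1 and MommeD43 replicate 3, and below it in the other 3 libraries. Hoxb5os had the reverse pattern in all 6 libraries. The division was read from the levels of these same RNAs, after their values were seen. How many of all genes tested divide the libraries this way was not counted, so it cannot be called particular to these RNAs. Among genes named after their values were seen, Hoxa10 and Cdx1 were also higher in WT replicate 1 and MommeD43 replicates 1 and 3. Hoxa9 and Hoxb9 were lower there. Of the neighbouring Hox genes, Hoxa11 and Hoxb6 were higher in those libraries and Hoxb3 was lower. Hoxb6 thus went opposite to Hoxb5os, and Hoxb3 opposite to Hoxb3os. The span from lowest to highest library was 1.54-fold for Hotairm1, 1.69-fold for Hoxb3os, 2.82-fold for Hoxa11os and 1.92-fold for Hoxb5os. It was 1.24-fold for Hoxaas3, which was steady across embryos, 1.42-fold for Hoxaas2 and 1.60-fold for Haglr. Where Hotairm1 was high, WT replicate 1 and MommeD43 replicates 1 and 3 held 36617081, 10957916 and 13088211 reads. Where Hotairm1 was low, WT replicates 2 and 3 and MommeD43 replicate 2 held 23622033, 16621319 and 47298348 reads. The shallowest library was thus in the high set and the deepest in the low set. The part of depth in this division was not tested.

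Markers of primitive blood cells divided the libraries into the same sets, but in the direction opposite to Hotairm1, Hoxa10 and Cdx1 above. The summed level of 5 markers (Hbb-bh1, Hba-x, Hbb-y, Gata1 and Klf1) was 5.47, 13.4 and 14.6 RPKM in WT replicate 1 and MommeD43 replicates 1 and 3. It was 468.5, 173.5 and 208.4 RPKM in WT replicates 2 and 3 and MommeD43 replicate 2, with embryonic globins carrying most of it. Gata1 was at 0 in the 3 libraries with low sums. Yolk sac endoderm markers, 6 in number, varied otherwise, from 100.2 to 205 RPKM in WT and from 25.1 to 334.5 RPKM in MommeD43. Gut endoderm (95.6 to 111.5 RPKM), endothelium (38.0 to 50.5 RPKM), lateral mesoderm and allantois (109 to 129 RPKM) and segmented somite markers (1.71 to 2.50 RPKM, with 2 to 4 of 6 at 0) varied less. The part of blood or yolk sac cells in the levels of these RNAs was not tested. In bulk tissue, fewer cells of a type and less RNA per cell cannot be told apart.

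**Figure D4:**
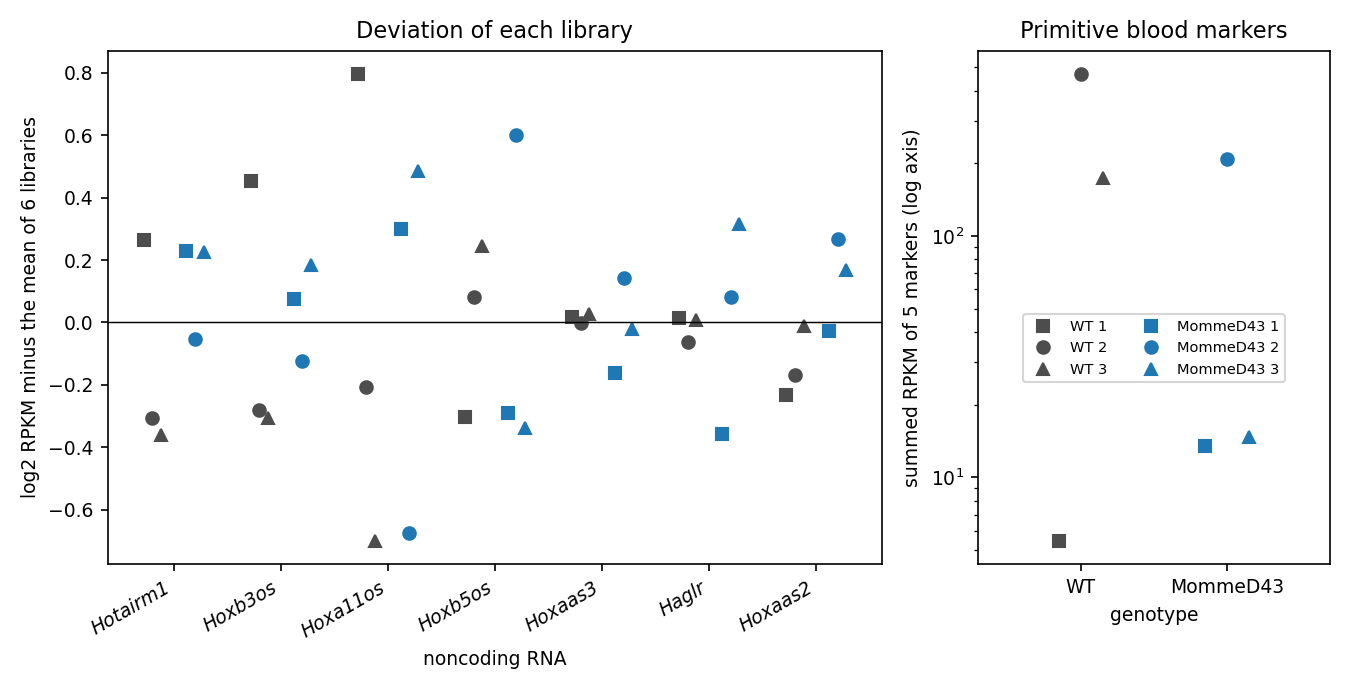
Left, log2 RPKM of each library minus the mean of all 6 libraries for the 7 tested noncoding RNAs. Right, summed RPKM of 5 primitive blood markers (log axis). WT replicate 1 and MommeD43 replicates 1 and 3 lie above the mean for Hotairm1, Hoxb3os and Hoxa11os, and below it for Hoxb5os. The same 3 libraries have the 3 lowest sums of blood markers.

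Whether males and females differed in the effect of the allele was asked with a sex by genotype term in limma. The male effect rests on 1 embryo a genotype, which is assumed to vary like the females. No RNA passed an adjusted p of 0.05, where 37 of 13617 genes (0.272%) did. At an unadjusted p under 0.05 there were 3 of 7 RNAs, and 1471 of all genes tested (10.8%). Hoxb3os had a log2 fold change of -0.38 for males and 0.32 for females, a difference of -0.70 ± 0.23 (SE, unadjusted p = 0.0183, adjusted p = 0.365). Haglr had -0.37 and 0.22, a difference of -0.60 ± 0.21 (unadjusted p = 0.0281, adjusted p = 0.411). Hotairm1 had -0.03 and 0.42, a difference of -0.45 ± 0.18 (unadjusted p = 0.0434, adjusted p = 0.448). Hoxaas2 was higher in MommeD43 in both, by 0.20 for males and 0.31 for females, and the signs differed between the sexes for the other 6. Some of these values were near 0, such as 0.012 for males and -0.033 for females in Hoxb5os. How many of all genes tested had opposite signs was not counted, so this cannot be called particular to these RNAs. The males shared a mother, and the females did not, so sex and litter cannot be told apart.

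Of 10 further noncoding genes that the annotation places in the clusters or within 10 kb, 4 passed the filter, 1 with a positive and 3 with a negative log2 fold change (median -0.46, against 0.003 over all genes tested). Gm53 (chr11:96251105-96264868, plus strand), a lincRNA between Hoxb13 and Hoxb9, was at 6.92, 6.81 and 6.12 RPKM in WT and at 4.52, 7.15 and 5.39 RPKM in MommeD43. Its log2 fold change was -0.24 ± 0.16 (limma, adjusted p = 0.999), and no other gene shares its exons. Hoxd3os1 (chr2:74703248-74716130, minus strand), antisense to Hoxd3 and Hoxd4, was at 0.447, 0.324 and 0.251 RPKM in WT and at 0.350, 0.368 and 0.639 RPKM in MommeD43. The groups of both overlapped.

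An unadjusted p under 0.05 was found for 2 of the 4 tested, both lower in MommeD43 (2.40% of all genes tested). Gm15050 (chr6:52172881-52174059, plus strand), which ends just before Hoxaas3, was at 2.18, 2.53 and 2.51 RPKM in WT and at 0.992, 2.26 and 1.52 RPKM in MommeD43. Its log2 fold change was -0.67 ± 0.27 (unadjusted p = 0.0389, adjusted p = 0.999), on 6 to 59 reads a library. Gm28309 (chr2:74683446-74694194, plus strand) was at 2.02, 1.22 and 0.869 RPKM in WT and at 0.732, 0.611 and 0.613 RPKM in MommeD43, with no overlap of groups. It had -0.99 ± 0.30 (unadjusted p = 0.0113, adjusted p = 0.999), but 89.7% of its exons are shared on the same strand with Hoxd10 and Hoxd11, so its value is uncertain.

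Among Hox genes, 35 of 39 passed the filter, 18 with a positive and 17 with a negative log2 fold change (median 0.02). Of all genes tested, 327 (2.40%) had an unadjusted p under 0.05, 133 of them lower in MommeD43. The 3 Hox genes with such a p were all lower in MommeD43 and had an adjusted p of 0.999 (limma). They were Hoxa6, which Hoxaas3 spans, and the posterior genes Hoxc10 (-0.60 ± 0.18) and Hoxd13 (-0.66 ± 0.22). None of the 9 noncoding RNAs lies in the posterior part of the Hoxd cluster, and the nearest to Hoxc10, Hotair, was at or near 0. Of the 35, 5 had groups that did not overlap (Hoxc10, Hoxd3, Hoxd10, Hoxd11 and Hoxd13), where 7.08% of all genes did so.

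Genes for chromatin proteins with which Hox noncoding RNAs have been linked, listed together with Smchd1 and Lrif1, were expressed throughout. All 15 passed the filter, and 0 had an unadjusted p under 0.05, with 2 positive and 13 negative log2 fold changes (median -0.02). Ezh2, the Polycomb methyltransferase linked to Hotair, averaged 38.8 ± 0.725 RPKM over WT and 38.5 ± 0.947 RPKM over MommeD43 libraries (SD, n = 3 each). Wdr5, the MLL complex subunit linked to Hottip, averaged 54.5 ± 2.43 and 53.6 ± 1.42 RPKM. So transcripts for both partners were abundant where Hotair and Hottip were at or near 0. Groups did not overlap for 1 of the 15, which is near the share over all genes tested (7.08%). It was Lrif1, a partner of SMCHD1, with 1.81 ± 0.194 RPKM over WT and 1.44 ± 0.168 RPKM over MommeD43 libraries. Ezh2, Wdr5 and Lrif1, like Hoxb9, Hoxd10 and Hoxd11 above, were named after their values were seen. Of 13 regulators of Hox cluster opening, such as the Cdx genes, the retinoic acid receptors and Gdf11, 12 were tested. None had an unadjusted p under 0.05, with 7 positive and 5 negative log2 fold changes (median 0.02).

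For the 3 most abundant RNAs, the tested genes with the most similar profile over 6 libraries were found by the root mean square distance of centred log2 RPKM. They were Pkm, Zbtb14 and Traf3ip1 for Hoxaas3, at distances of 0.0216 to 0.0247 where the RNA itself varied by 0.09. They were Nkd2, Srsf1 and Tekt1 for Hoxb5os, at 0.0726 to 0.125 where the RNA varied by 0.346. For Hotairm1 they were Zfp692, Tcea3 and Tcirg1, at 0.0542 to 0.0622 where the RNA varied by 0.258. The row of Srsf1 had a mean of 0.628 RPKM. No Hox gene was among these 9 genes. Only 35 of the 13617 genes tested were Hox genes, so little can be read from this.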

How the data were processed

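RNA was sequenced from tailbud of 3 WT and 3 MommeD43 embryos, grouped by the labels. According to the methods and the labels, the authors trimmed reads with Trim Galore 0.4.4, mapped them with HISAT2 2.0.5 to GRCm38.p6 and quantified genes with SeqMonk. The deposited table holds log2 RPKM, and genes without a read sit at the value of 0.9 read. Whole reads were recovered from GENCODE M21 exon lengths and library totals (99.0% of 105978 values whole within 0.02). RPKM below comes from these reads. Intervals are exact (binomial, 95%), and they and the floor of 3 reads cover counting error only. Genes were kept with at least 15 reads in all and, in at least 3 libraries, a depth-scaled level equal to 10 reads at the median library size. The deposited log2 values of 13617 autosomal genes were tested in R 4.3.3 by limma 3.58.1, with its trend option. Two-sided p-values were adjusted by the Benjamini-Hochberg method. Permutation tests used scipy 1.17.1. The code was tested on simulated data. The planned count models were not run, because the table holds log2 values. The authors' mean columns were not used. Some genes and sequences are not reported here.

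Named were all 9 noncoding RNAs and their neighbouring Hox gene (most overlapping bases, else the smallest gap), other noncoding genes of the clusters with at least 10 reads in every library, for the 3 most abundant RNAs the 3 genes of the most similar profile, and list genes at an unadjusted p under 0.05. The members and lists were chosen with earlier results of these data known. Alternatives were a term for sex, blocks by replicate number, the female libraries by themselves, leaving out each library, pseudocounts of 0.1 and 1 RPKM, TMM and median-ratio scaling, other filters and voom on recovered reads.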

Additional observations from a re-analysis of the deposited data

How the results depend on the processing

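No noncoding RNA passed an adjusted p of 0.05 under any of the alternatives run, and the positive sign of Hotairm1 (0.12 to 0.47) and Hoxaas2 (0.20 to 0.36) held under all. At an unadjusted p under 0.05 there were 2 RNAs with females alone (Hotairm1, 0.42, and Hoxb3os, 0.32) and 2 without WT replicate 1 (Hotairm1, 0.47, and Hoxb3os, 0.34). Hoxaas2 was the only 1 without MommeD43 replicate 1 (0.36) and with voom (0.35). Calls rose over all 13617 genes tested as well, from 327 in the main fit to 1188 with females alone and 944 without WT replicate 1. They were 500 without MommeD43 replicate 1 and 425 with voom. With females alone 10 genes of the whole table passed an adjusted p of 0.05, none of them a noncoding RNA followed here. Signs turned for values near 0. Leaving out each library gave -0.106 to 0.046 for Hoxaas3, -0.26 to 0.49 for Hoxa11os, -0.041 to 0.339 for Hoxb3os, -0.32 to 0.15 for Hoxb5os and -0.13 to 0.21 for Haglr. With females alone Hoxaas3 was at 0.049. With voom Hoxa11os was at -0.39, Hoxb3os at -0.053 and Hoxb5os at 0.17. The cause was not tested.

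The difference in log2 ratio to the neighbouring Hox gene ranged, with each library left out, from -0.168 to 0.063 for Hoxaas3, -0.015 to 0.509 for Hoxb3os, -0.52 to 0.14 for Hoxb5os and -0.37 to 0.066 for Haglr, which was at 0.064 with females alone. The differences between the sexes kept their sign and their side of the threshold with TMM factors and with a pseudocount of 0.1. Median-ratio factors lay between -0.0108 and 0.00949 on the log2 scale. The count of all genes at an unadjusted p under 0.05, 327 as reported, was 187 without WT replicate 3, 944 without WT replicate 1, 500 without MommeD43 replicate 1, 1188 with females alone, 425 with voom and 572 without a filter, where 20132 genes were tested.

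Replicate numbers did not pair the libraries: deviations of same-numbered libraries correlated by -0.0264, 0.167 and -0.173, and 2 of 6 libraries correlated best with their own number. With the replicate block, 307 genes were at an unadjusted p under 0.05 in place of 327, 0 passed the adjusted threshold, and the log2 fold changes of Hotairm1 (0.27) and Hoxaas2 (0.27) had an adjusted p of 0.999 (limma). The log2 ratios to neighbours under the block were unchanged by construction, for example 0.28 for Hoxaas2 to Hoxa3. The planned count models were not run. Depth limits Hottip, Hotair and Hoxa11os most: without a filter on low values Hottip had a log2 fold change of 0.36 ± 0.84 and Hotair -0.36 ± 0.77 (SE), both set by the level given to genes without a read.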
